A study of Homo sapiens with 3 samples.

Results

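The promoter contacts of the Hippo pathway genes YAP1, WWTR1, TEAD1, TEAD2, TEAD3, TEAD4, LATS1, LATS2, VGLL2 and VGLL4 were examined in hESC-CMs, which are cardiomyocytes grown from human embryonic stem cells. A promoter fragment was any HindIII restriction fragment listed on the promoter side of a call that held an annotated transcript start of one of these genes, and every call with such a fragment on either side was taken. The rule found 11 of the 19075 promoter fragments of the series, for 9 of the 10 genes, and 125 of its 200587 contacts. TEAD4 had none.

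Promoter capture Hi-C was performed on 3 biological replicates of hESC-CMs, which formed the only group. The cells came from the WA09 (H9) embryonic stem cell line at passage 32. They spent 2 days each in differentiation media A and B, 1 day in maintenance medium, 6 days in B27 medium without insulin on fibronectin, 2 days in complete B27 medium, 6 days in lactate medium without glucose to enrich cardiomyocytes, 2 days in serum medium and 7 more days in complete B27 medium, 28 days in all. Purity by MYH7 and TNNT2 was given as at least 80 to 90%, and fixation was with 2% formaldehyde. The material is thus a single line differentiated in culture, a minority of other cells may be present, and no second condition was there to compare with.

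Hippo signalling is a kinase cascade that limits organ growth. The kinases MST1 and MST2 (genes STK4 and STK3) activate LATS1 and LATS2, which phosphorylate the coactivators YAP (YAP1) and TAZ (WWTR1) and so keep them out of the nucleus. Inside the nucleus YAP and TAZ, which do not bind DNA themselves, join the TEAD transcription factors, while VGLL proteins bind the same TEAD factors. In the heart the pathway is known for restraining cardiomyocyte proliferation, and TEAD factors bind the MCAT element of many muscle genes.

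A contact is a pair of fragments ligated together more often than CHiCAGO expects at that distance. The score is its weighted significance on a −log scale, and it already allows for distance, so a higher score is not a more frequent contact and a contact is not expression. The lowest score listed was 5, and pairs below it cannot be told from pairs with no ligation. Read depth is unknown from these scores.

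The fragments that carried the highest scores of the 2 most connected genes are given here from GRCh37, plus strand, each 5′ to 3′. In both contacted fragments the capitals are what the HindIII cut leaves at their ends. The TEAD1 partner is the whole 256 bp fragment at chr11:12907609-12907864 in a TEAD1 intron. The WWTR1 partner is given by its first 300 bases, chr3:149249404-149249703, of a 1283 bp fragment in a WWTR1 intron.
TEAD1 contacted fragment: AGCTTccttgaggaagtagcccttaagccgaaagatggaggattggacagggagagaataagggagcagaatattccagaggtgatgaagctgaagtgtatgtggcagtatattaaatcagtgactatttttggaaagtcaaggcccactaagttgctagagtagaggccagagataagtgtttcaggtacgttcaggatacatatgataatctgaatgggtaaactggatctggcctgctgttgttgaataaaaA
WWTR1 contacted fragment: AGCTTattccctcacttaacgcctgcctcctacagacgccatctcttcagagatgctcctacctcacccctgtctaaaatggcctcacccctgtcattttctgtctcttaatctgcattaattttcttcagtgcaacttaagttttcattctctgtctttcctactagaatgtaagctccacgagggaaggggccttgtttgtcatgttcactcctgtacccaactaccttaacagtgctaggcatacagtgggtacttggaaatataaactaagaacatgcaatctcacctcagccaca

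WWTR1 and TEAD1 held most of the contacts, 40 and 44 of the 125. The 9 genes together had 85, 74 and 85 contacts in replicates 1, 2 and 3 (81.3 ± 6.35, SD, n = 3). WWTR1 had 33, 31 and 33 contacts (32.3 ± 1.15), and TEAD1 had 36, 23 and 29 (29.3 ± 6.51). Their ranges overlapped, and both stood above all other members in every replicate. YAP1 had 4 in each replicate. TEAD2 had 3, 5 and 4, VGLL2 had 3, 3 and 6, LATS2 had 3, 3 and 4, and TEAD3 had 3, 2 and 2. LATS1 had 0, 2 and 3, and VGLL4 had 0, 1 and 0. Going down this order, each gene's range over the replicates overlapped that of the next, except between TEAD1, lowest at 23, and YAP1, highest at 4. No test of this order was made, because with 3 replicates an exact paired permutation test cannot give a two-sided p below 0.25.

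**Figure D1:**
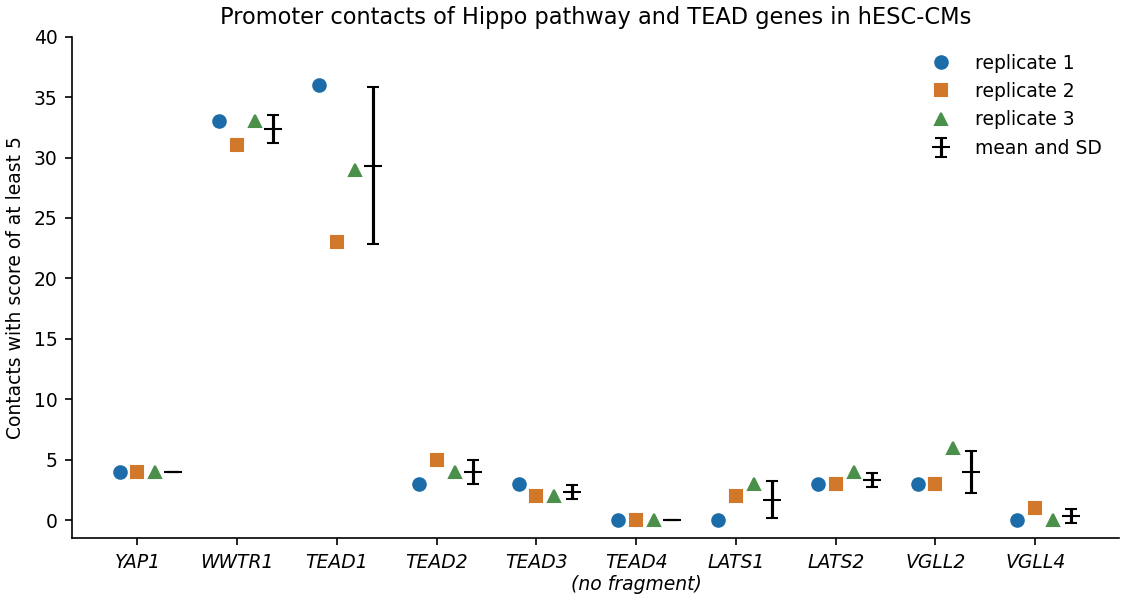
Number of contacts with a score of at least 5 for each gene (x axis) in each hESC-CM replicate (points), with the mean and SD beside them. WWTR1 and TEAD1 lie between 23 and 36 in all replicates, and no other gene exceeds 6.

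Set against all promoter fragments of the series, where the median was 6 contacts, the canonical TEAD1 fragment with 37 was exceeded by 4.98% of them, and the canonical WWTR1 fragment with 27 by 9.34%. The second WWTR1 fragment, with 13, was exceeded by 26.1%. YAP1, TEAD2, LATS1, LATS2 and VGLL2, with 5 to 9 contacts, lay around the median. TEAD3 had 3, with 20.4% of promoter fragments below it, although only 1.97% were longer than its 26537 bp. VGLL4 had a single contact, the fewest that a listed fragment can have.

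Of the 125 contacts, 47 were called in all 3 replicates (37.6%, 95% Wilson interval 29.6 to 46.3%), against 24% of all contacts of the series. Another 25 had a call in 2 replicates and 53 in a single one. Contacts within 1 Mb recur more often in general, and among those 44.8% of the members' 105 were called in all 3 replicates against 34% over all promoters. Inside this window the members' contacts were still nearer, with a median of 215 kb against 359 kb. The 2 shares are therefore not matched for distance. The share was not even among the genes. WWTR1 and TEAD1 supplied 42 of the 47, 50% of their 84 contacts, and the other 7 genes supplied 5 of 41 (12.2%, interval 5.32 to 25.5%). Of the 9 genes, 6 (WWTR1, TEAD1, TEAD2, TEAD3, YAP1 and VGLL2) had at least 1 contact in all 3 replicates. By fragment this was 8 of 11, against 51.9% of the promoter fragments of the series. LATS1, LATS2 and VGLL4 had none.

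**Figure D2:**
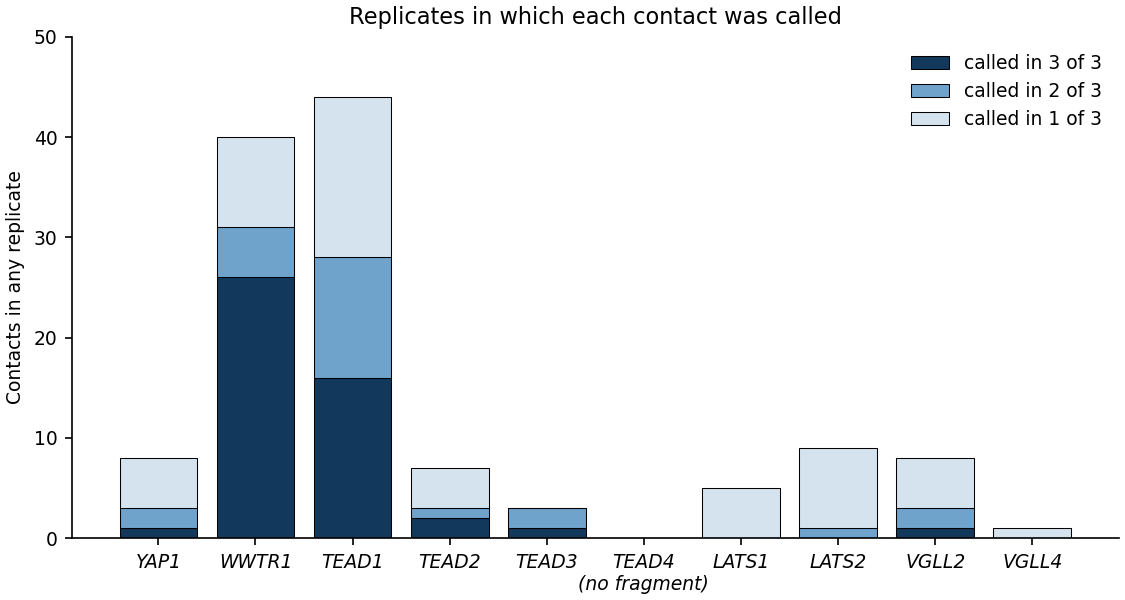
Contacts of each gene in any replicate (y axis), split by the number of replicates that called them. WWTR1 has 26 contacts in all 3 replicates and TEAD1 has 16, while LATS1, LATS2 and VGLL4 have none and TEAD4 has no promoter fragment.

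The recurrent contacts scored somewhat higher in replicate 1 than in the others. Over the 47 contacts called in all 3, the mean score was 8.83 in replicate 1, 8.10 in replicate 2 and 8.18 in replicate 3. Replicate 1 gave the highest of the 3 scores in 24 of them, replicate 2 in 10 and replicate 3 in 13. Replicates 1 and 2 shared 55.9% of the contacts either had, replicates 1 and 3 shared 47.8% and replicates 2 and 3 shared 51.4%.

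Among the 122 on the same chromosome the median distance was 223 kb, against 716 kb over all promoter fragments, and 13.9% were over 1 Mb against 42.1%. Within the replicates the members' median was 214, 215 and 216 kb. Another 3 joined different chromosomes. The 7 genes other than WWTR1 and TEAD1 had a median of 306 kb, with 14 of 38 over 1 Mb. Fragments overlapping the member's own gene made up 40.8% of the contacts (51 of 125) against 3.99% over all promoters, and within the replicates the members' share was 51.8, 47.3 and 50.6%. All 51 belonged to WWTR1 (27) and TEAD1 (24), whose gene bodies of 219 and 270 kb are the longest of the 10. VGLL4 spans 215 kb and had no contact inside itself, but its 1 contact in any replicate is too few to describe a position. Gene length as a cause was not tested. Partner fragments that were themselves promoter fragments made up 16.8%, close to the 17.5% over all promoters. No contact joined the promoters of 2 members, and no fragment was contacted by 2 different members. Members on the same chromosome lie far more than 1 Mb apart, and 2.4% of the members' contacts joined different chromosomes. The share over all pairs of promoters was not computed, so this count is no result about the pathway.

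TAZ, encoded by WWTR1, is a coactivator like YAP and joins the same TEAD factors. Its gene lies on the minus strand of chromosome 3 and had 2 promoter fragments. The first (chr3:149374257-149378191) holds the canonical start, 5 coding starts in all, and the start of the antisense gene WWTR1-AS1. The second (chr3:149451768-149455416) lies further upstream and holds 1 non-coding transcript start. They had 20, 20 and 21 contacts and 13, 11 and 12 contacts in the 3 replicates, and 15 of 27 and 11 of 13 were called in all 3. Other annotated WWTR1 starts lie in fragments that were not listed on the promoter side.

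Both fragments reached the same end of the gene. Joining contacted fragments less than 20 kb apart, 22 of the 27 contacts of the canonical fragment formed a block from 149229185 to 149289363, 87.2 to 146 kb downstream, and 14 of the 22 were called in all 3 replicates. From the second fragment, 12 of 13 contacts formed a block from 149220264 to 149250686, 204 to 233 kb downstream, with 10 in all 3. These blocks cover the 3′ part of WWTR1 and run past its end towards TM4SF4. The 2 promoter fragments shared 11 contacted fragments, 40.7% of those of the first and 84.6% of those of the second, and 9 of the 11 were called from both in all 3 replicates.

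The highest mean score of each block was not at the same place. From the canonical fragment the highest scores were at chr3:149249404-149250686, the WWTR1 fragment printed above, with 16.58, 12.94 and 14.38 (14.6 ± 1.83). The same fragment scored 5.90, 6.44 and 6.74 (6.36 ± 0.426) from the second promoter fragment, so that the lowest of one set lay well above the highest of the other. From the second fragment the highest mean score was nearer the gene end, at chr3:149239186-149239616, also intronic, with 13.37, 10.18 and 9.26 (10.9 ± 2.16). In replicate 3 the fragment from 149232141 to 149232601 scored higher, at 11.65, so the place of this peak differed between replicates. At chr3:149239186-149239616 the canonical fragment gave 11.32, 8.69 and 9.17, and the ranges overlapped. Among the 9 fragments shared in all 3 replicates, scores from the canonical fragment were higher without overlap in 1, scores from the second were higher without overlap in 2, and the ranges overlapped in 6. Beyond the gene end, in TM4SF4, the 327 bp fragment at chr3:149220264-149220590 scored 9.10, 9.33 and 11.06 from the second promoter fragment (9.83 ± 1.07) and was not listed from the first.

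The block of the canonical fragment also holds 2 fragments with internal WWTR1 transcript starts. The one from 149254041 to 149258957 scored 9.43, 9.62 and 8.42 from the canonical fragment, and that from 149259929 to 149262044 scored 7.15, 7.5 and 5.43. Both were called in every replicate, and neither was itself on the promoter side of any call.

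In the other direction, both WWTR1 fragments contacted the promoter fragment of the ankyrin repeat gene ANKUB1 (chr3:149494370-149500224, also RNU6-507P). The canonical fragment gave 9.38, 5.97 and 8.08 at 121 kb, and the second gave 7.11, 13.42 and 10.71 (10.4 ± 3.17) at 43.7 kb. Replicate 2 was the lowest of the first set and the highest of the second. The profile most like both was that of the neighbouring gene COMMD2, whose fragment contacted all 13 fragments that the second WWTR1 fragment did (72.2% of the fragments either contacted) and 13 of the 27 of the canonical fragment (40.6%). In all 3 replicates COMMD2 contacted 11 of the 12 fragments of the second block, and 9 of the 22 of the first. Besides COMMD2, only the ANKUB1 fragment had a contact in all 3 replicates within these blocks, with 1 fragment in each.

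**Figure D3:**
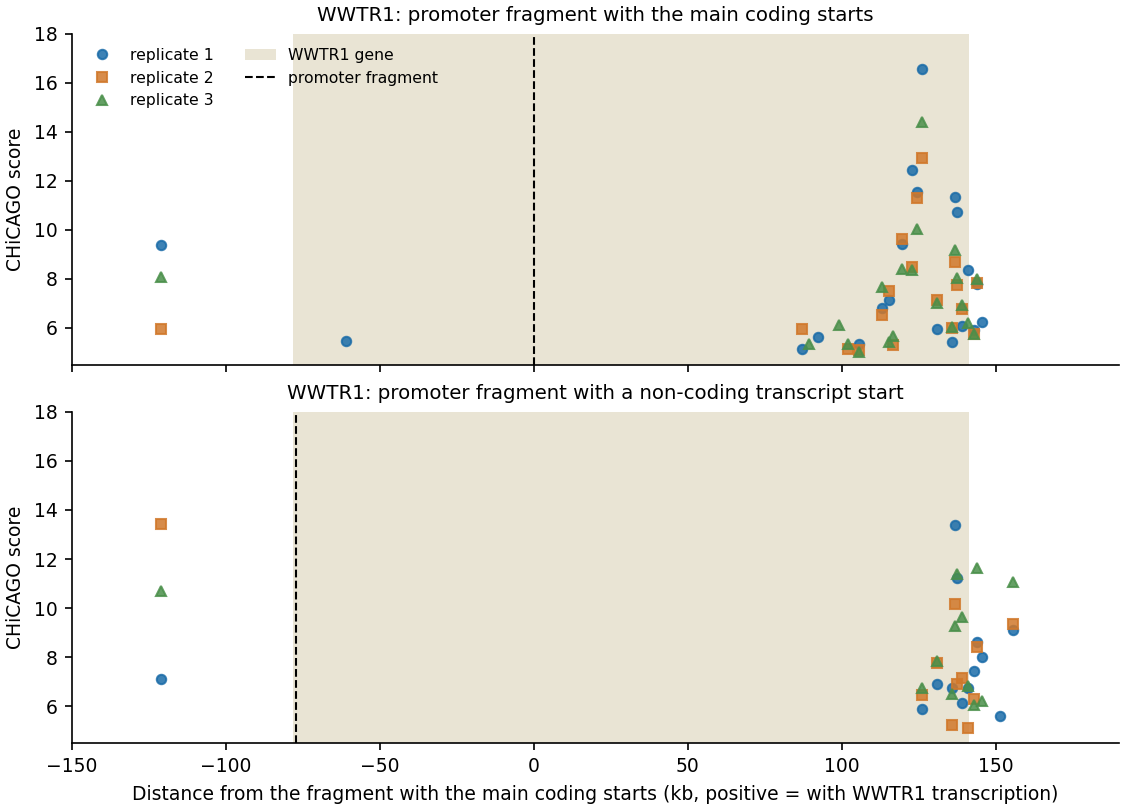
CHiCAGO score of each WWTR1 contact (y axis) against its distance in kb from the canonical promoter fragment, positive with WWTR1 transcription, for the canonical fragment (top) and the second fragment (bottom); 3 contacts over 1 Mb away are off the axis. Most points of both panels lie near the 3′ end of the shaded gene, where the top panel peaks at 126 kb with scores of 12.94 to 16.58. Both share the ANKUB1 contact at 121 kb upstream, which holds the highest single score of the bottom panel, 13.42.

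TEAD1, the best known TEAD factor of muscle, binds the MCAT element. Its gene lies on the plus strand of chromosome 11, and its canonical promoter fragment (chr11:12688193-12699875) had 32, 21 and 25 contacts, 37 in any replicate and 15 in all 3. A second fragment inside the gene (chr11:12844042-12853723), with 1 non-coding TEAD1 start and a start of ENSG00000254688, had 4, 2 and 4 contacts, 7 in any and 1 in all 3. Every TEAD1 contact lay within 1 Mb. Replicate 2 had the fewest from both fragments and replicate 1 the most from the first.

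The canonical promoter contacted 2 distant stretches on opposite sides. The one with more fragments called in all 3 replicates was inside TEAD1 itself. There 21 fragments from 12861938 to 12922582, 169 to 228 kb downstream, were contacted, 12 of them in all 3 replicates. The highest scores fell on the 256 bp intronic fragment printed above, with 14.70, 12.67 and 11.85 (13.1 ± 1.47), and on the next one, chr11:12907865-12912248, with 11.83, 12.54 and 12.10 (12.2 ± 0.358). Their ranges overlapped. The fragment before them (12904617 to 12907608) scored 13.71, 8.22 and 7.88, so that replicate 1 stood well above the others (9.94 ± 3.27). A fragment of the same block, 12899702 to 12902138, holds an internal coding start of TEAD1 and scored 7.00, 5.35 and 5.54. No promoter fragment of another annotated gene had a contact in any replicate within this block; the fragment at chr11:12398560-12398866, described next, reached 11 of its 21 fragments in all 3 replicates.

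The other stretch was upstream, in and before PARVA, the gene of the focal adhesion protein alpha-parvin. It held 13 contacted fragments from 12386594 to 12463885, 230 to 307 kb from the promoter, 3 of them called in all 3 replicates. Both leading fragments lay in PARVA introns. The fragment at chr11:12433726-12436871 scored 14.51, 9.35 and 10.19 (11.4 ± 2.77), and chr11:12432682-12433725 before it scored 11.72, 10.80 and 11.22 (11.2 ± 0.461). The third, 12386594 to 12387040, lay in no gene and scored 6.78, 5.16 and 7.30. A smaller group of 3 fragments inside TEAD1, 128 to 144 kb downstream, was called in 1 replicate each at 5.05 to 5.24.

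Seen from the second TEAD1 fragment, contacts were all upstream, and 6 of the 7 were with fragments of the PARVA stretch that the canonical promoter also contacted (85.7% of its own, 16.2% of those of the canonical fragment). Its one contact in all 3 replicates was chr11:12398560-12398866, with 6.43, 5.43 and 5.82 at 450 kb. At chr11:12432682-12433725 it scored 7.86 and 7.77 in replicates 2 and 3 and was not listed in replicate 1. It had no contact in the downstream TEAD1 stretch. That stretch begins close to this fragment, whereas the nearest contact of any member lay 43.7 kb away. The 2 TEAD1 fragments were therefore not compared with this stretch at like distances.

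The fragment at chr11:12398560-12398866, just before PARVA, was itself listed on the promoter side, although no transcript start is annotated in it. It had the profile most like the canonical TEAD1 promoter, sharing 14 contacted fragments, 32.6% of those either contacted, and the pair also contacted each other in replicates 1 and 2 (5.26 and 5.07). For the second TEAD1 fragment the most alike was that of the small Cajal body RNA gene SCARNA16, just beyond the TEAD1 block, with 5 shared fragments (22.7%). SCARNA16 was the only other promoter fragment with a contact in all 3 replicates within the PARVA stretch, where it reached 5 of the 13 fragments.

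**Figure D4:**
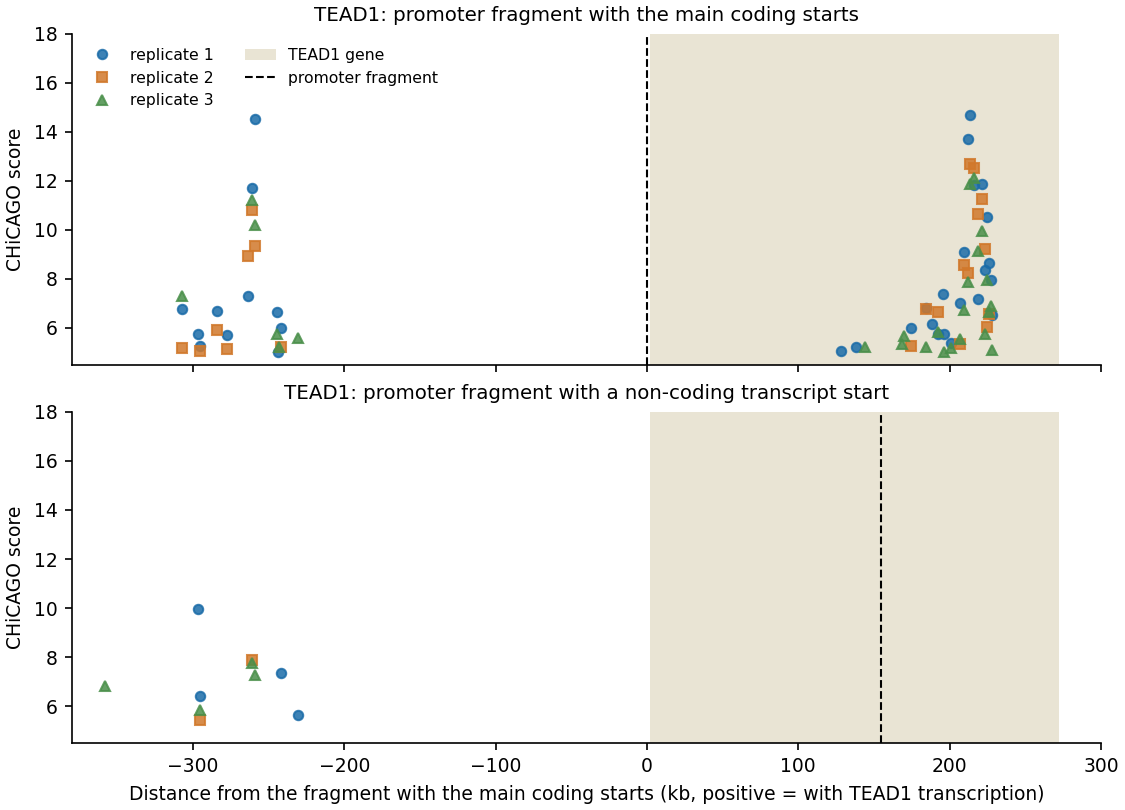
CHiCAGO score of each TEAD1 contact (y axis) against distance in kb from the canonical promoter fragment, for that fragment (top) and the fragment of the non-coding start (bottom). The top panel has groups of points on both sides, 230 to 307 kb upstream and 169 to 228 kb downstream inside the shaded gene, and the bottom panel has the upstream ones only. The downstream stretch begins close to the fragment of the bottom panel.

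YAP1 encodes the coactivator YAP, and its promoter had far fewer contacts than that of WWTR1 in every replicate. Its fragment (chr11:101980476-101985328) had 8 contacts in any replicate, and 1 in all 3, with the promoter fragment of CFAP300, a cilia and flagella associated gene, 67.7 kb upstream (chr11:101911384-101919066; 5.94, 9.12 and 6.30; 7.12 ± 1.74). The adjoining CFAP300 fragment scored 5.53 and 6.53 in replicates 2 and 3. Downstream of the gene, 168 to 235 kb away, 4 fragments were called at 5.18 to 5.68. The one at chr11:102150204-102151022, between YAP1 and BIRC3, was called in replicates 1 and 2, and the others in a single replicate. One of these held the promoter of BIRC2, an inhibitor of apoptosis, with 5.39 in replicate 3 and 7.93 in the calls made on the merged replicates. None of the 8 overlapped YAP1, although the merged calls listed an exonic YAP1 fragment, chr11:102100651-102101982, at 6.01. The remaining 2 of the 8 contacts were in 1 replicate each, in MTMR2 at 6332 kb (7.06) and on chromosome 9 in KANK1 (5.74). The most alike profile, of ENSG00000254422 at the 3′ end of YAP1, shared 2 fragments (20%).

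TEAD2, a TEAD factor prominent in early embryos, shares its fragment (chr19:49863362-49869791) with DKKL1, so its contacts cannot be assigned to either gene. The fragments of YAP1, LATS1 and VGLL2 likewise hold a start of an unnamed gene (ENSG00000277459, ENSG00000278899 and ENSG00000287253). The canonical WWTR1 fragment holds a start of WWTR1-AS1, and the second TEAD1 fragment a start of ENSG00000254688. The same limit applies to all of these fragments. TEAD2 had 7 contacts, and 6 of them joined other promoter fragments. Both that were called in all 3 replicates lay upstream. The fragment of ALDH16A1 and PIH1D1 (chr19:49954367-49959388) scored 8.29, 9.11 and 10.44 (9.28 ± 1.09) at 90.3 kb, and that of SLC17A7 and PIH1D1 (chr19:49932671-49952045) scored 10.05, 7.83 and 8.97 (8.95 ± 1.11) at 75.8 kb. PIH1D1 encodes a cochaperone and SLC17A7 a glutamate transporter of synaptic vesicles. The SCAF1 fragment scored 5.05 and 6.87 in replicates 2 and 3. The other 4 were called once each, with POLR1G and PPP1R13L at 7.64 the highest. The most alike fragment, of KASH5, shared 1.

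TEAD3, which is expressed in placenta and other tissues, had all its contacts upstream, 2 of the 3 with promoter fragments. The fragment of the colipase-like genes CLPSL1 and CLPSL2 scored 9.43, 9.35 and 7.20 (8.66 ± 1.27) at 290 kb. The promoter fragment of LHFPL5, at 312 kb, scored 5.63 and 6.61 in replicates 1 and 2. An exonic fragment of ARMC12 without an annotated start, at 249 kb, scored 5.82 and 5.83 in replicates 1 and 3. These 3 were all of its contacts, and the fragment of the neighbouring gene TULP1 had the same 3 among its 6 (50%).

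TEAD4, the TEAD factor of the trophectoderm, had no contact to describe. Its annotated starts lie in HindIII fragments chr12:3065332-3086797, with 7 starts, and chr12:3118854-3132125, with 1. Neither was in any call on either side. Whether they were captured cannot be read from the calls, so a promoter without a contact and a promoter that was not captured cannot be told apart.

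The LATS kinases, which act directly on YAP and TAZ, had no contact in all 3 replicates. LATS1 (chr6:150037980-150042805) had 5, each in 1 replicate and none in replicate 1. Of these, 4 were 37870 to 49242 kb away, in SOBP and FYN and between genes, by SIM1 and by FOXO3, with scores of 5.56 to 7.21. The nearest, 152 kb downstream, was the promoter fragment of GINM1, at 5.01 in replicate 2 and 6.29 in the merged calls. Without replicate 2 LATS1 kept 3 contacts, and without replicate 3 it kept 2. ULBP1 had the most alike profile, with 1 shared fragment.

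LATS2 (chr13:21630497-21644042) had 9 contacts, and 1 of them was in more than 1 replicate, with the promoter fragment of ZDHHC20, a palmitoyltransferase gene, at 395 kb (5.56 and 5.05 in replicates 2 and 3). Another, in an intron of CRYL1 562 kb downstream, scored 5.63 in replicate 2. The remaining 7 gathered in one far stretch. Within 74.2 kb, from 23308694 to 23382870, in no gene, 7 fragments were contacted over 1673 to 1745 kb, by 3, 1 and 3 calls in replicates 1, 2 and 3. Every one of the 7 was called in a single replicate, the highest at 9.68 in replicate 1, and none was in the merged calls. Each replicate thus had calls in the stretch, on different fragments. With LATS2, 21 promoter fragments contacted it in any replicate, and 10 others did so in all 3. The most alike profile was that of a snoU13 fragment at chr13:21542959-21543699, near the 3′ end of LATS2, with 5 shared fragments (31.3%).

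The VGLL cofactors bind TEAD factors through their TDU motif. VGLL2 (vestigial-like 2), known from skeletal muscle, had 8 contacts from chr6:117579682-117593939, and 6 of them formed a block 285 to 299 kb upstream, between RFX6 and VGLL2. The block runs without a gap from 117286441 to 117301577 and held 3, 3 and 4 calls in the replicates. Its one fragment in all 3, chr6:117298385-117301386, scored 5.03, 6.57 and 6.27 (5.96 ± 0.816) and 11.53 in the merged calls. A further fragment, at 285 kb, scored 5.72 and 6.69 in replicates 2 and 3, and the one at 295 kb scored 6.02 and 5.83 in replicates 1 and 2. The merged calls listed all 6 and 6 more that adjoin them towards the gene, to 276 kb. One other promoter fragment contacted this block, in fewer than 3 replicates. Without replicate 3 VGLL2 had 4 contacts, and at a score of at least 7 it had 0. GOPC had the most alike profile, with 2 shared fragments (8.70%).

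VGLL4, known in the heart as an antagonist of YAP and TEAD, was listed from chr3:11759247-11768876, which holds 8 of its transcript starts but not the canonical one. Its single contact lay in an exonic fragment of the autophagy gene ATG7, 342 kb downstream, at 5.12 in replicate 2. The merged calls held it at 6.76 with the 2 fragments beside it, at 5.77 and 6.49.

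**Figure D5:**
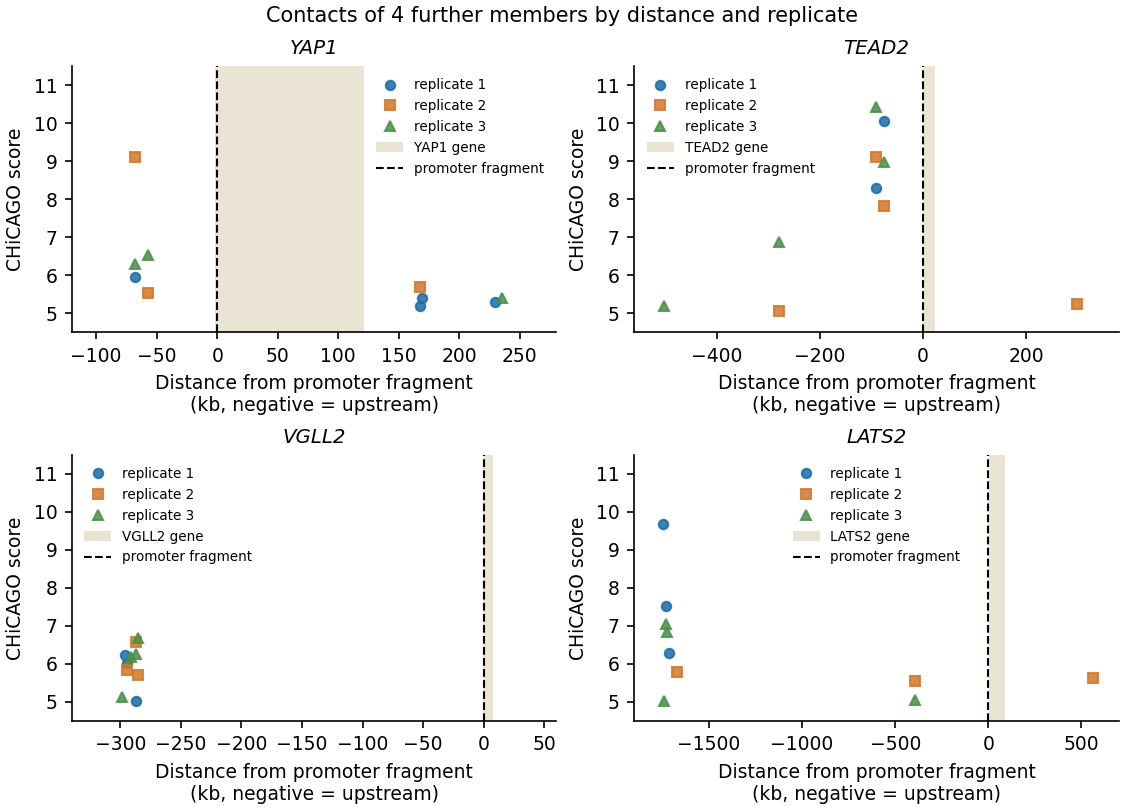
CHiCAGO score (y axis) against distance in kb from the promoter fragment, negative upstream, for YAP1, TEAD2, VGLL2 and LATS2 (the farthest contacts and those on other chromosomes are off the axes). VGLL2 has a tight group 285 to 299 kb upstream and LATS2 one 1673 to 1745 kb upstream, while YAP1 at 67.7 kb and TEAD2 at 75.8 and 90.3 kb upstream have points from all 3 replicates, with scores up to 9.12 and 10.44.

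The TEAD motif CATTCC, searched on both strands (the other strand reads GGAATG), was counted in the contacted fragments. Leaving out promoter fragments, it occurred 0.637 times per kb over their 90 contacted fragments and 0.586 times per kb over the 108063 contacted by all promoters, and 58.9% against 62.8% of fragments held at least 1 match. The members' fragments were shorter, with a median of 1397.5 bp against 1938 bp, so these 2 shares were not matched for length. TEAD1 contacts had 0.751 per kb and WWTR1 contacts 0.587. Neither of the 2 top fragments printed above had a match. In the 250 bases before the canonical start, 3 of the 10 members had 1 match each and the other 7 none, against 9.82% of 19869 coding gene promoters with a match. A match of 6 letters is a description of the sequence and not a binding site.

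The other pathway genes had a median number of contacts near that of coding genes in general. Of 27 further Hippo pathway genes 23 had a promoter fragment, with a median of 8 contacts (1 to 84), beside 7 over the 15517 coding genes with a fragment, and 70 of their 308 contacts (22.7%) were in all 3 replicates. The atypical cadherin FAT4 had the most, 56, 54 and 58. AMOTL2 of the angiomotin family had 16, 22 and 14. VGLL3 came next by contacts in any replicate, with 22, but 0 of them were in all 3. Per replicate it had 9, 7 and 6, and its mean of 7.33 lay below that of several other list genes, such as STK3 (9.33). SAV1, FRMD6, AMOTL1 and WTIP had no promoter fragment. Over all 20149 coding genes 77.0% had a fragment. Among 19 genes known as targets of YAP and TEAD 18 had a fragment (not NUAK2), with a median of 18.5 contacts (5 to 44), and 152 of 383 contacts (39.7%) were in all 3 replicates. The most in any replicate were those of CRIM1 (44), ASAP1 (43), IGFBP3 and FOXF2 (42 each). Per replicate IGFBP3 had 31, 36 and 33, FOXF2 had 27, 38 and 25, CRIM1 had 30, 22 and 35, and ASAP1 had 26, 23 and 28, so the order by mean was another.

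Over the whole series the replicates listed 112473, 109731 and 110740 contacts with median scores of 6.63 to 6.65, so no replicate stood apart in number or score. Of all contacts 58.0% were called in 1 replicate, against 42.4% of those of the members. Contacts cannot check the cell type as RNA would. For description, the cardiomyocyte genes TNNT2, MYH6, MYH7, ACTN2, MYL7 and NPPA had 2 to 32 contacts in any replicate. Those called in all 3 replicates ran from 1 for ACTN2 to 16 for MYH6. The pluripotency gene SOX2 had 31, 33 and 28 contacts, 23 of them in all 3, while POU5F1 and NANOG had no promoter fragment. The fibroblast gene COL1A1 had 13, 8 and 21, 6 of them in all 3. Over the series 51.9% of promoter fragments had a contact in all 3 replicates.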

How the data were processed

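The deposited data are 4 sets of promoter capture Hi-C calls, 1 for each hESC-CM replicate and 1 that the authors made on all 3 merged. Each line holds 2 HindIII fragments and a CHiCAGO score, which the authors obtained with default parameters after mapping to GRCh37 with HiCUP. Versions of both are not given in the sources used here. The merged set served as an alternative. All 127138 fragments tested had both ends at HindIII sites of GRCh37.

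Contacts were counted as unordered pairs over the union of the 3 replicates. Genes and starts were from GENCODE 44 lifted to GRCh37. Distances are between fragment midpoints, upstream and downstream follow the member's strand, and a block joins contacted fragments less than 20 kb apart. A mean score is over the replicates that called the contact, and SDs are between replicates. Intervals are 95% Wilson intervals and cover counting error only. Depth was not analysed, since the files hold scores only. With 1 group no contrast was tested. Python 3.11.15, numpy 2.4.6, pandas 2.3.3, scipy 1.17.1 and matplotlib 3.10.9 were used, and the counting was tested on simulated data.

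Members and lists were chosen with earlier results of these data known. Beside the members, the genes named are those with a start in a fragment contacted in all 3 replicates (up to 3), those overlapping or flanking the 3 contacts of highest mean score, the promoter with the most shared fragments, and of each list the 3 genes with the most contacts and those with none. Other partners were named after their values were seen, to complete a member's contacts. PECAM1 was on the marker list and absent from the annotation by that name. Alternatives were scores of at least 7 and 10, each replicate left out, other promoter definitions, the member on the promoter side only, no contacts between 2 promoter fragments, a window of 1 Mb, matching within 5 kb, and the merged calls. Gaps of 5 and 50 kb for the blocks were added after seeing the data.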

Additional observations from a re-analysis of the deposited data

Results flagged for a closer look

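The merged calls, used only as an alternative, held 130 contacts of the member promoters, and 33 of them were in no single replicate. They were made on the same 3 replicates pooled, so this count is a description and not independent evidence. TEAD1 had 10 of these, WWTR1 had 8, VGLL2 had 6, YAP1 had 5, and LATS1 and VGLL4 had 2 each. In turn 28 of the 125 contacts called in a replicate were not in the merged calls, among them all 9 of LATS2.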

How the results depend on the processing

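Scores of at least 7 left 53 of the 125 contacts and scores of at least 10 left 20, all of them from WWTR1 (10), TEAD1 (8) and TEAD2 (2). At a score of at least 7 WWTR1 had 23, TEAD1 had 20, TEAD2 and LATS2 had 3 each, YAP1 had 2, TEAD3 and LATS1 had 1 each, and VGLL2 and VGLL4 had 0. Leaving out 1 replicate moved the counts of 3 genes by over 1.5 times, LATS1 (3 without replicate 2 and 2 without replicate 3), VGLL2 (4 without replicate 3) and VGLL4 (0 without replicate 2). The share in all 3 replicates (37.6%) became 25% at a score of at least 10 and 62.4% when a contact within 5 kb counted as a match, and with each replicate left out the share in both others was 47.8 to 55.9%, since fewer replicates had to agree. The median distance (223 kb over the union, with medians of 214 to 216 kb in single replicates) was 219 and 214 kb at the higher scores, 218 to 221 kb with a replicate left out, 230 kb from the gene record start, 222 kb without contacts between promoter fragments, 215 kb within 1 Mb and 209 kb in the merged calls. The share overlapping the own gene (40.8%) was 49.1% and 65% at the higher scores, 42.9 to 45.1% with a replicate left out, 34.4% from the gene record start, 47.1% without contacts between promoter fragments, 48.6% within 1 Mb and 48.5% in the merged calls. The gene record start, which leaves out the canonical WWTR1 fragment, left 13 WWTR1 contacts. Blocks numbered 14, and 17 and 12 at gaps of 5 and 50 kb, both chosen after seeing the data. Other causes were not tested. No paired analysis was possible because the series has 1 group. Pairs scoring under 5 were not listed, so a missing call does not show that a contact is absent.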
